A study of Saccharomyces cerevisiae with 2 samples.

Results

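The genes described are those of the small ribosomal subunit proteins of Saccharomyces cerevisiae, named RPS with a number and, for duplicated genes, the letter A or B. They were found by symbol in the deposited list of open reading frames (ORFs), which gave 55 genes of 6698 ORFs. Of these, 46 form 23 pairs of an A and a B copy, 8 are single copy genes, and RPS22A stands without its partner, which is not analysed here. An intron is annotated in 35 of them and none in 20. RNA bound to Cbc2, a subunit of the nuclear cap binding complex, was purified through a TAP tag from trf4Δ and wild-type SK1 cells after 6 h of meiosis and sequenced, with 1 library per genotype. Both strains were diploid and carried CBC2-TAP, and the trf4Δ strain lacked both copies of TRF4, a subunit of the TRAMP complex that marks nuclear RNA for the exosome. The comparison asks how the RNA held by Cbc2 differs when TRAMP lacks Trf4, which lets cryptic unstable transcripts (CUTs) accumulate.

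With 1 library per genotype no difference has a replicate check, no p-value is given, and all 95% intervals cover counting error only, since PCR copies are not independent molecules. Each library had its own sequencing lane, so effects of lane and of genotype cannot be told apart. The 100 bp segments of the genome held 29687088 reads in trf4Δ, against 22092372 in wild type, so wild-type counts were scaled up by a factor of 1.344 to level the totals. Reads of the deleted gene numbered 1 in trf4Δ, against 346 in wild type. All 8 meiotic markers examined had reads in both libraries, for example DMC1, which encodes the meiotic recombinase, with 9479 reads in trf4Δ, against 22456 normalised reads in wild type. The 5 markers of haploid cells examined also had reads, from 146 (MFA2) to 750 (MFA1, a mating pheromone) in trf4Δ and from 398 (FUS1) to 3451 (MFA1) normalised reads in wild type, and their part in the results was not tested. Values are shares of the RNA bound to Cbc2 in a culture, in which fewer cells and less RNA per cell cannot be told apart.

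The small ribosomal subunit holds the 18S rRNA and a set of proteins that line the mRNA channel and the decoding centre. Its proteins assemble on the rRNA precursor in the nucleolus, and yeast makes them from some of the most strongly transcribed genes of growing cells. Most of these genes are duplicated, with proteins that are identical or nearly so. Introns are rare among yeast genes but common in this family, where some proteins are known to act back on the RNA of their own gene. In yeast, Rps14 represses splicing of the RPS14B transcript.

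Of the introns, those of the RPS9 and RPS14 pairs are shown because the A and B copies of these pairs differed most in their response. The sequences are from R64 (RefSeq), on the strand of the gene, and positions are counted from the first base of the ORF, base 1, with base 0 just before it. Capitals mark the first 6 bases of the intron, where U1 snRNA pairs with the transcript, and for the RPS14 copies the TACTAAC box, which holds the branch point adenosine.
RPS9A, chromosome XVI, bases 8 to 37: GTACGTcgttaatcttctccttttaagggg
RPS9B, chromosome II, bases 8 to 37: GTACGTattagactatatcgaagaggaggg
RPS14B, chromosome X, bases 11 to 40: GTACGTgaaaggggtgatatcctgtttaaa
RPS14A, chromosome III, bases 8 to 37: GTATGTttaatcacatagtgaacattttta
RPS14B, branch region, bases 376 to 406: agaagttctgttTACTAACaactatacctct
RPS14A, branch region, bases 248 to 278: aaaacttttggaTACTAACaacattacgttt

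Both RPS9 copies and RPS14B begin their intron with GTACGT, whereas RPS14A has GTATGT, the hexamer of 73.0% of the 281 introns of R64 nuclear protein-coding genes. Among the 35 introns of the small subunit genes, 23 (65.7%) begin with GTATGT, 9 with GTACGT and 3 with GTATGA. The TACTAAC box was found in 32 of the 35 (91.4%), against 82.6% of all introns, and was not matched in RPS9A, RPS9B and RPS21A. A missing match says only that these letters do not occur in the annotated intron.

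Small subunit protein genes took 0.440% of the ORF reads in trf4Δ (interval 0.437 to 0.444), against 0.468% in wild type (0.465 to 0.472). Large subunit protein genes took 0.985% in trf4Δ, against 0.805% in wild type. Which genes supplied the reads differed widely between the libraries. RPS9A, RPS0A, RPS26A and RPS14B together gave 44.5% of the small subunit reads in trf4Δ, against 6.21% in wild type. RPS29B and RPS30A together gave 6.62% in trf4Δ, against 25.2% in wild type. These 6 genes were singled out after their values had been seen.

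All 55 genes passed the filter of more than 64 reads (6 on the log2 scale) in at least 1 library, as did 6246 ORFs in all. The median log2 difference, trf4Δ minus wild type, was -0.95 over the 55 genes and -0.97 over all compared ORFs, so that the family as a whole lay where the typical ORF lay. Differences ranged from -2.86 to 2.59. More than 4-fold fewer reads in trf4Δ were found for 8 genes (14.5%, against 10.5% of all compared ORFs) and more than 4-fold more for 3 (5.45%, against 8.10%). Past 2-fold, 26 genes had fewer reads (47.3%, against 48.9%) and 5 had more (9.09%, against 15.3%). When the median ORF is set to 0 in place of equal totals, the median of the family becomes 0.020, with 29 genes above the median ORF and 26 below it. On that scale 10 genes lie more than 2-fold above the median ORF (against 27.2% of all) and 9 more than 2-fold below it (against 11.6%).

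**Figure D1:**
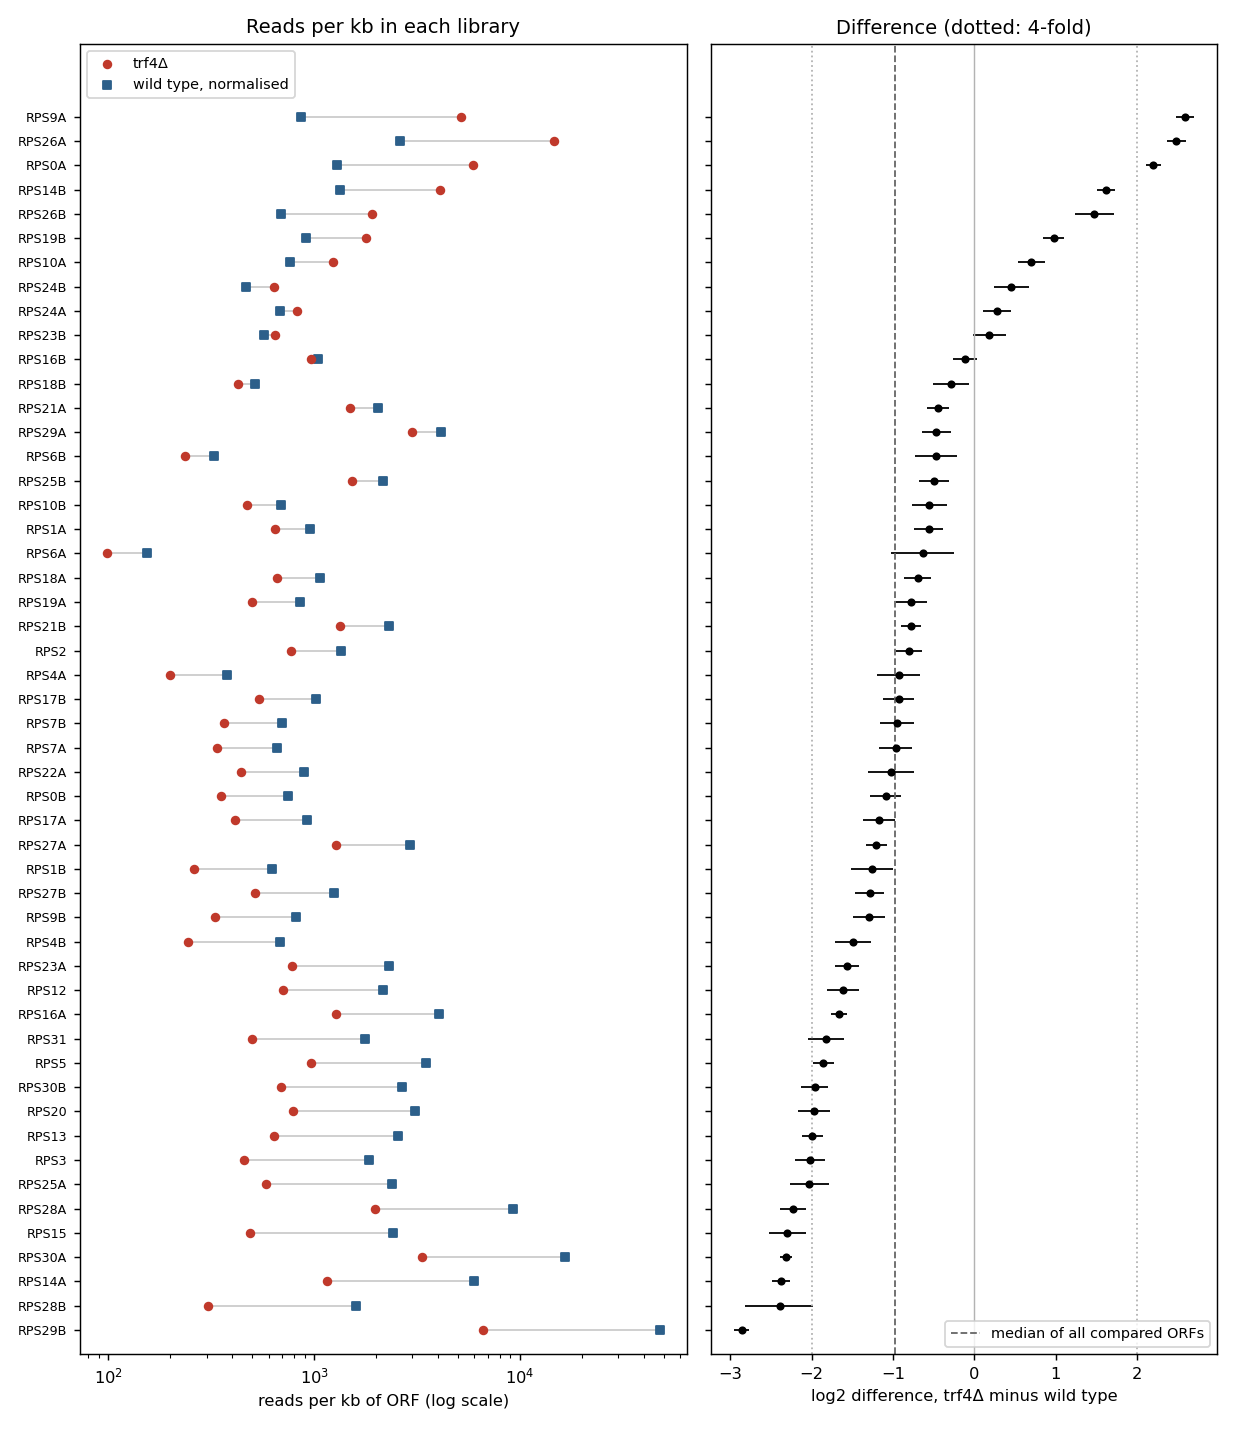
Reads per kb of ORF in each library on a log axis (left) and the log2 difference, trf4Δ minus wild type, with 95% counting intervals (right) for 51 of the 55 genes, ordered by their difference. The highest 3 lie beyond 4-fold at 2.59, 2.48 and 2.20, the middle of the family lies at the dashed median of all compared ORFs at -0.97, and RPS29B is lowest at -2.86.

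RPS9A (YPL081W, chromosome XVI, 404947 to 406041, SGD1.01), whose protein binds early in assembly of the subunit body, had 5673 reads in trf4Δ, against 942 normalised in wild type (log2 difference 2.59, 2.48 to 2.71). RPS26A (YGL189C, chromosome VII, 148235 to 148594) encodes a late-joining protein near the mRNA exit and had 5250 reads in trf4Δ, against 941 normalised reads in wild type, a difference of 2.48 (2.37 to 2.60). RPS0A (YGR214W, chromosome VII, 920580 to 921793), whose protein is needed for the last cleavage of 18S rRNA, had 7172 reads in trf4Δ, against 1561 in wild type, a difference of 2.20 (2.11 to 2.29). These were the 3 genes beyond 4-fold on the upper side, and RPS14B (YJL191W, chromosome X, 73786 to 74610), for a protein of the platform, followed with 3375 reads in trf4Δ, against 1102 in wild type (1.61). RPS26B, the second copy of RPS26, followed with 685 reads in trf4Δ, against 247 in wild type (1.47, 1.23 to 1.71).

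At the other end, RPS29B (YDL061C, chromosome IV, 340628 to 340798), for a small zinc-binding protein of the head, had 1126 reads in trf4Δ, against 8173 normalised reads in wild type, a difference of -2.86 (-2.95 to -2.77). It had 6585 reads per kb in trf4Δ, against 47794 normalised reads per kb in wild type, where it was the densest of the 55 genes. RPS28B, for a protein of the head at the mRNA exit, had only 62 reads in trf4Δ, against 325 in wild type (-2.39, -2.82 to -1.98). RPS14A (YCR031C, chromosome III, 177496 to 178216) had 830 reads in trf4Δ, against 4307 in wild type (-2.38). RPS30A (YLR287C-A, chromosome XII, 712539 to 713160), for a basic protein near the decoding centre, had 2069 reads in trf4Δ, against 10281 in wild type (-2.31).

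The remaining 4 genes with more than 4-fold fewer reads all encode proteins of the head. RPS15, whose protein faces the decoding region, had 210 reads in trf4Δ, against 1032 in wild type (-2.30). RPS28A had 404 in trf4Δ, against 1891 in wild type (-2.23). RPS25A had 191 in trf4Δ, against 778 in wild type (-2.03). For RPS3, whose protein lies at the mRNA entry, the counts were 330 in trf4Δ, against 1337 in wild type (-2.02). The next genes, RPS13 at -1.99 and RPS20 at -1.97, lay just within 4-fold. Read density in trf4Δ was highest for RPS26A, with 14583 reads per kb in trf4Δ, against 2613 normalised reads per kb in wild type. RPS29B, RPS0A, RPS9A and RPS14B followed in trf4Δ, with 6585, 5908, 5181 and 4091 reads per kb.

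By place in the subunit, the 22 genes for head proteins had a median log2 difference of -1.39, with 6 beyond 4-fold lower (27.3%, against 10.5% of all compared ORFs) and none beyond 2-fold higher in trf4Δ (against 15.3%). The 33 genes for proteins of the body and platform had a median of -0.94, with 2 beyond 4-fold lower (6.06%) and 5 beyond 2-fold higher (15.2%). These counts hold for equal totals. With the median ORF set to 0, none of either group is 4-fold lower (against 0.192% of all compared ORFs). More than 2-fold below the median ORF lie 6 head genes (27.3%) and 3 of the 33 others (9.09%), against 11.6% of all. More than 2-fold above it lie 2 head genes (9.09%), RPS19B (1.95) and RPS10A (1.67). So do 8 of the 33 others (24.2%), against 27.2% of all compared ORFs. All 8 single copy genes had fewer normalised reads in trf4Δ (against 72.0% of all compared ORFs), from -2.30 (RPS15) to -0.80 (RPS2). Their median was -1.91, against -0.93 for the 47 duplicated genes. Set against the median ORF, RPS2 changes sign, to 0.17. Genes without an intron had a median of -1.60 and genes with one of -0.93. These groups overlap in membership and no difference between them was tested.

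Among the other genes of the pathway, the 81 genes of large subunit proteins had a median of -1.22, with 15 beyond 4-fold lower (18.5%, against 10.5% of all compared ORFs) and 4 beyond 4-fold higher in trf4Δ (4.94%, against 8.10%). With the median ORF set to 0 these counts become 0 lower and 9 higher (11.1%, against 15.1%). The 9 transcription factors examined, which act on ribosomal protein or ribosome biogenesis genes, all had fewer normalised reads in trf4Δ, against 72.0% of all compared ORFs. Their median was -1.44, although DOT6 (-0.80) and CRF1 (-0.10) lie above the median ORF. The 9 included IFH1, the coactivator, with 388 reads in trf4Δ, against 1232 in wild type. RAP1, also among them, had 786 reads in trf4Δ, against 2202 in wild type. The 28 factors of small subunit assembly had a median of 0.05, with none beyond 4-fold lower (against 10.5%) and 5 beyond 4-fold higher (17.9%, against 8.10%). With the median ORF set to 0, none is 4-fold lower (against 0.192%) and 6 are 4-fold higher (21.4%, against 15.1%). UTP13 and KRR1, of the early processome, had 4813 and 11635 reads in trf4Δ, against 294 and 781 normalised reads in wild type. DIM1, the 18S rRNA dimethylase, had 9323 in trf4Δ, against 676 in wild type. The partner of Nob1, PNO1, had 12883 in trf4Δ, against 2270 in wild type, and LTV1, an export factor, had 2922 in trf4Δ, against 554 in wild type. These are counts over whole ORFs, and where along them the reads lay was not examined.

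The A and B copies of many pairs did not respond alike. Ratios within a library do not depend on how the libraries are scaled. Copy A had more reads per kb than copy B in 14 of 23 pairs in trf4Δ and in 15 in wild type, and the copies differed by more than 2-fold in 13 pairs in trf4Δ and in 12 in wild type. In 11 pairs the ratio of A to B differed by more than 2-fold between the libraries. The log2 difference also varied widely between ORFs at large, with quartiles of -1.62 and 0.19 over all compared ORFs. Whether copies shift more often than other genes taken in pairs was not tested.

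**Figure D2:**
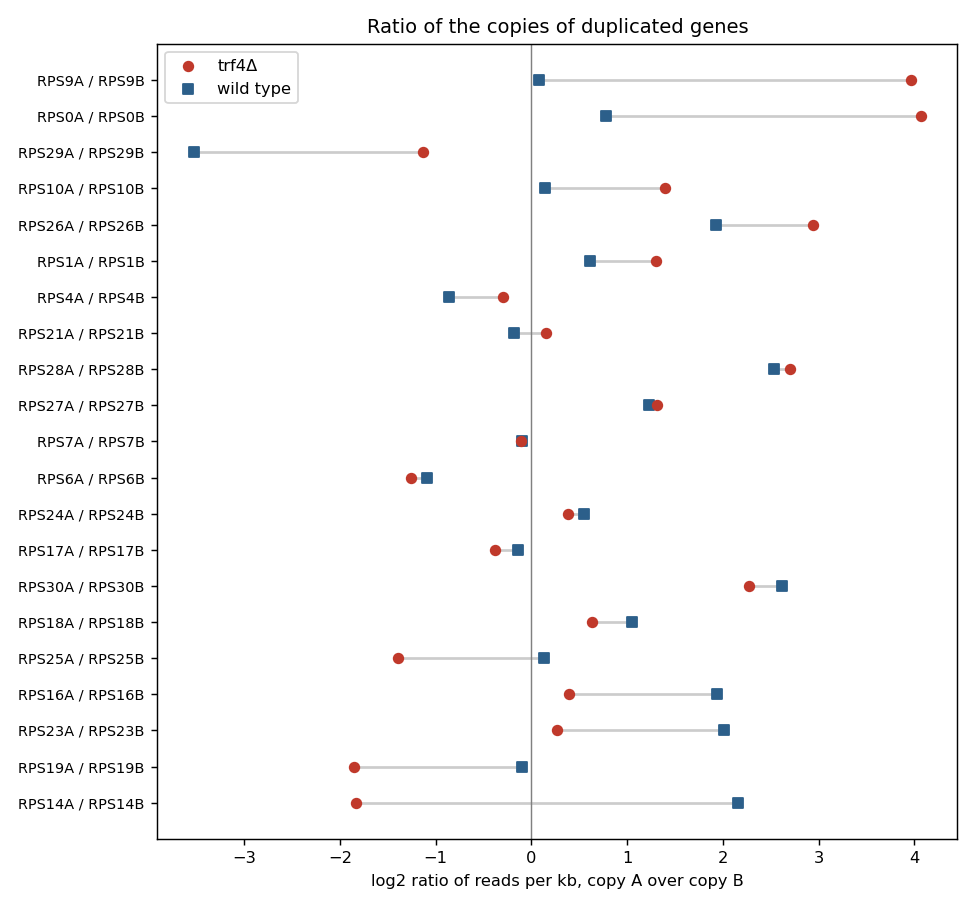
Log2 ratio of reads per kb, copy A over copy B, in trf4Δ (circles) and wild type (squares) for 21 of the 23 pairs, ordered by the shift between the libraries. RPS9 shifts by 3.89 towards copy A and RPS14 by 3.99 towards copy B, whereas RPS7 shifts by 0.02 towards copy B.

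RPS14 turned round. Copy A had 1151 reads per kb and copy B 4091 in trf4Δ, a log2 ratio of A to B of -1.83 (-1.94 to -1.72), whereas wild type had 5973 normalised reads per kb on copy A and 1336 on copy B, a ratio of 2.16 (2.05 to 2.27). The RPS9 copies were 15.7-fold apart in trf4Δ, with 5181 reads per kb on copy A and 331 on copy B, and nearly equal in wild type (log2 ratio 0.08). RPS9B itself had 331 reads in trf4Δ, against 814 in wild type, a log2 difference of -1.30, near that of the median ORF.

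The RPS0 ratio was 4.07 in trf4Δ, with 5908 reads per kb on copy A and 352 on copy B, and 0.78 in wild type, with 1286 and 749 on the same copies. RPS29 moved towards equality, with copy B 2.20-fold denser than copy A in trf4Δ and 11.5-fold denser in wild type. RPS25 also changed order (-1.39 in trf4Δ, 0.14 in wild type). For RPS25 the wild-type interval, -0.04 to 0.31, spans equal copies.

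Of the other pairs with large ratios, RPS28 and RPS30 kept a similar ratio. RPS28 had a ratio of 2.70 in trf4Δ, against 2.54 in wild type, and RPS30 had 2.27 in trf4Δ, against 2.62 in wild type. RPS26 had 2.94 in trf4Δ, against 1.93 in wild type, a 2.01-fold shift. Among the pairs with small ratios in trf4Δ were RPS7 (-0.11), RPS21 (0.16) and RPS23 (0.26). Of these, RPS7 was even in both libraries (-0.09 in wild type), while RPS23 was 4.03-fold in favour of copy A in wild type.

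Identical stretches of the copies can lose reads when only unique reads are kept. Over the 55 genes, a median of 96.6% of 36-base windows of the ORF occurred once in R64, and 16 genes were unique throughout. Genes with few such windows included RPS6B at 49.1%, RPS6A at 51.1%, and the RPS4 copies at 57.4% (A) and 57.9% (B). RPS6A had 109 reads in trf4Δ, against 169 in wild type, so the levels of such genes may be too low. The RPS9, RPS14 and RPS0 copies had at least 90.2% unique windows. Counting reads per unique window left the number of pairs that shifted by more than 2-fold at 11.

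The 100 bp segments show where along the genes the reads lay. In the plot of segments, positions are counted in the direction of the gene from the first base of its ORF.

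**Figure D3:**
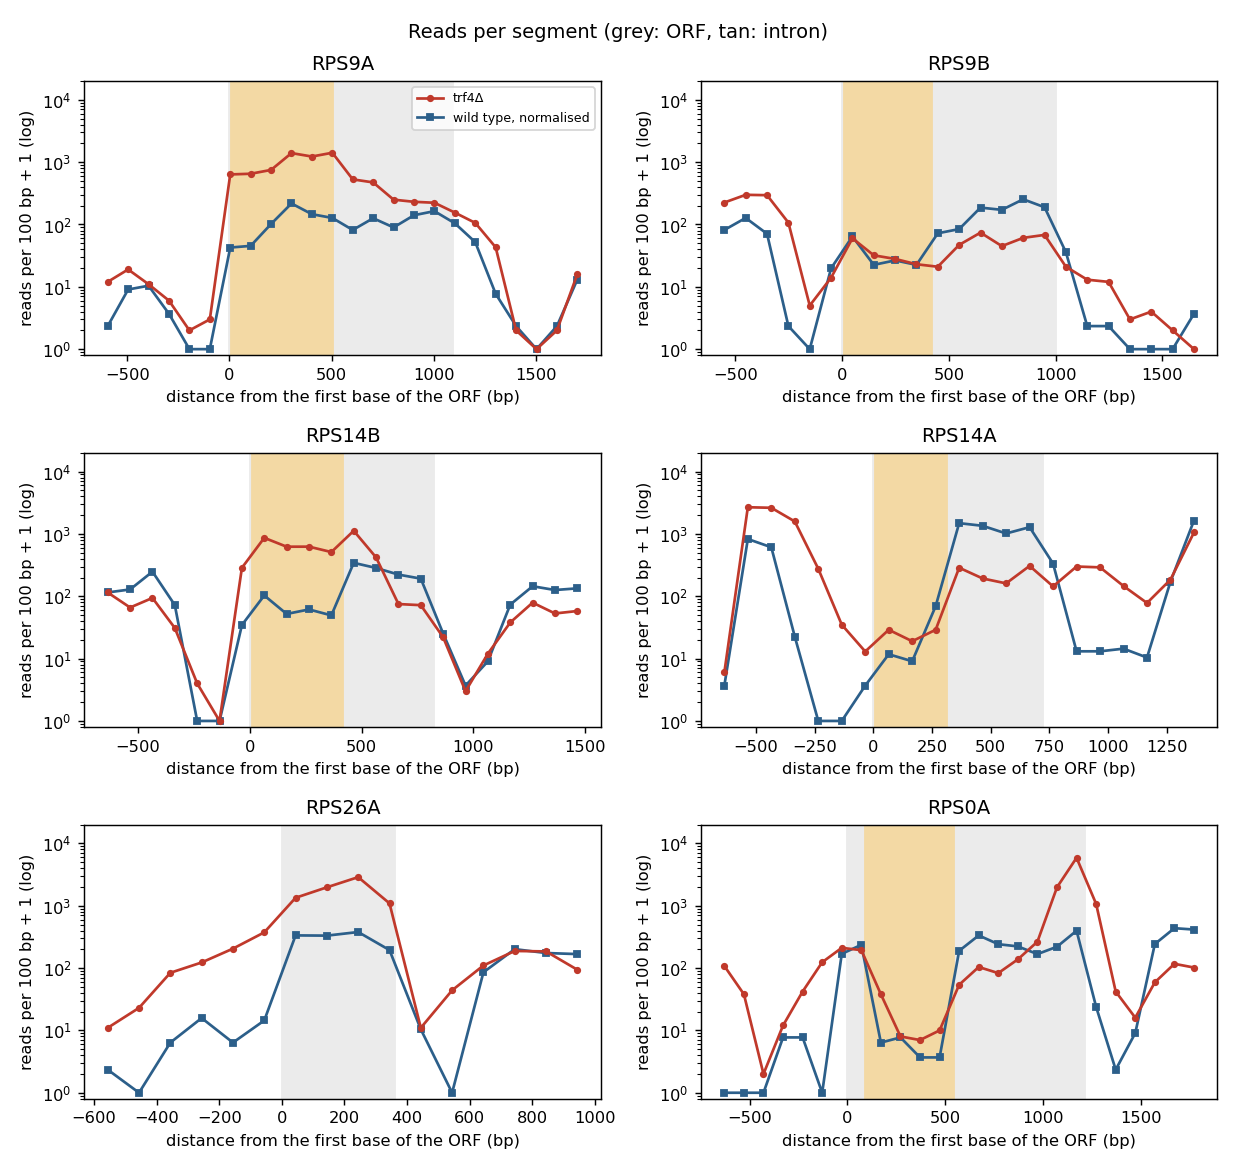
Reads per 100 bp segment plus 1 on a log axis along RPS9A, RPS9B, RPS14B, RPS14A, RPS26A and RPS0A and 600 bp on either side, in trf4Δ (circles) and wild type (squares, normalised), with the ORF in grey and the intron in tan. The trf4Δ excess covers the start and intron in RPS9A and RPS14B, all of RPS26A, and the last 200 bp of RPS0A. In RPS9A it runs on past the intron.

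In RPS9A the trf4Δ reads set in sharply at the start of the gene. The segment ending 46 bp before the ORF had 2 reads in trf4Δ and none in wild type, and the next had 634 in trf4Δ, against 31 raw reads in wild type. The 4 segments wholly inside the intron averaged 1006 reads in trf4Δ, against 127 normalised reads in wild type, and the 5 exon segments 340 in trf4Δ, against 119 in wild type. The region of more than 4-fold gain ran from base -45 to base 654, past the end of the intron at base 508. It had 8.74-fold more reads in trf4Δ, while the rest of the ORF had a log2 difference of 1.10. RPS9B, whose intron starts with the same hexamer, averaged 26.7 intron reads per segment in trf4Δ, against 22.8 in wild type, and 58.0 exon reads in trf4Δ, against 176 in wild type.

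RPS14B had the same form. Its 4 intron segments averaged 656 reads in trf4Δ, against 65.5 normalised in wild type (log2 difference 3.32), whereas its 3 exon segments averaged 188 in trf4Δ, against 232 in wild type, a difference of -0.30. Intron density was 349% of exon density in trf4Δ, against 28.2% in wild type. The gain ran from base -84 to base 415, close to the end of the intron at base 418. The segment that crosses the end of the intron had the most reads of the gene in trf4Δ, 1122, against 255 raw reads in wild type, and the last segments of the ORF, with 74 and 71 reads in trf4Δ, had fewer than wild type, with 165 and 142 raw reads.

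RPS14A differed. Its 4 exon segments averaged 236 reads in trf4Δ, against 1284 normalised reads in wild type, and its 2 intron segments 23 in trf4Δ, against 9.41 in wild type. Intron density was 9.75% of exon density in trf4Δ, against 0.732% in wild type. Regions gained in trf4Δ flanked the gene on both sides, with 4532 reads in trf4Δ, against 634 in wild type upstream (bases -483 to 16) and 811 in trf4Δ, against 47.0 in wild type downstream (bases 817 to 1216).

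RPS26A, which has no intron, was covered whole by a gained region from base -605 to base 594. Its 4 segments in the ORF held 7280 reads in trf4Δ, against 1235 normalised reads in wild type, 5.90-fold more. RPS26B lies behind a gained region that ends 47 bp before its ORF, with 3010 reads in trf4Δ, against 439 in wild type. The 3 segments of the 300 bp next to the ORF held only 128 reads in trf4Δ, against 52.4 in wild type. Its ORF was outside that region and still had 2.77-fold as many reads in trf4Δ.

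In RPS0A the gain lay at the far end. The 2 last segments of the ORF held 7851 reads in trf4Δ, against 615 normalised reads in wild type, 12.8-fold more, and the region went on to base 1421, beyond the end of the ORF at base 1214. The other 11 segments held 1101 reads in trf4Δ, against 1571 in wild type, a log2 difference of -0.51. The place of RPS0A among the genes with the highest differences thus rests on its last 2 segments. The library steps described in the paper include none that keeps strand, and counting was not stated to use it. Reads of a transcript on the other strand would thus be counted here, and likewise in RPS9A, RPS14B and RPS26A. For the same reason the reads of RPS2 and RPS27A, each of which overlaps another listed ORF, cannot be told apart from those of that ORF.

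Introns of the family held more reads in trf4Δ relative to their exons. Segments lying wholly inside an intron or an exon could be compared in 33 genes, leaving out RPS23A and RPS27A, whose ORFs differ in length from R64. The median log2 difference, trf4Δ minus wild type, was 0.59 for intron segments and -1.09 for exon segments of the same genes. The intron difference was above the exon difference in 31 of 33 genes, against 80.4% of the 97 other compared ORFs with an intron, and more than 2-fold above it in 24, against 58.8%. The median excess of intron over exon was 1.73 in the 33 genes and 1.29 in 51 genes of the large subunit. The range among the 33 was wide, from -0.28 to 4.31.

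**Figure D4:**
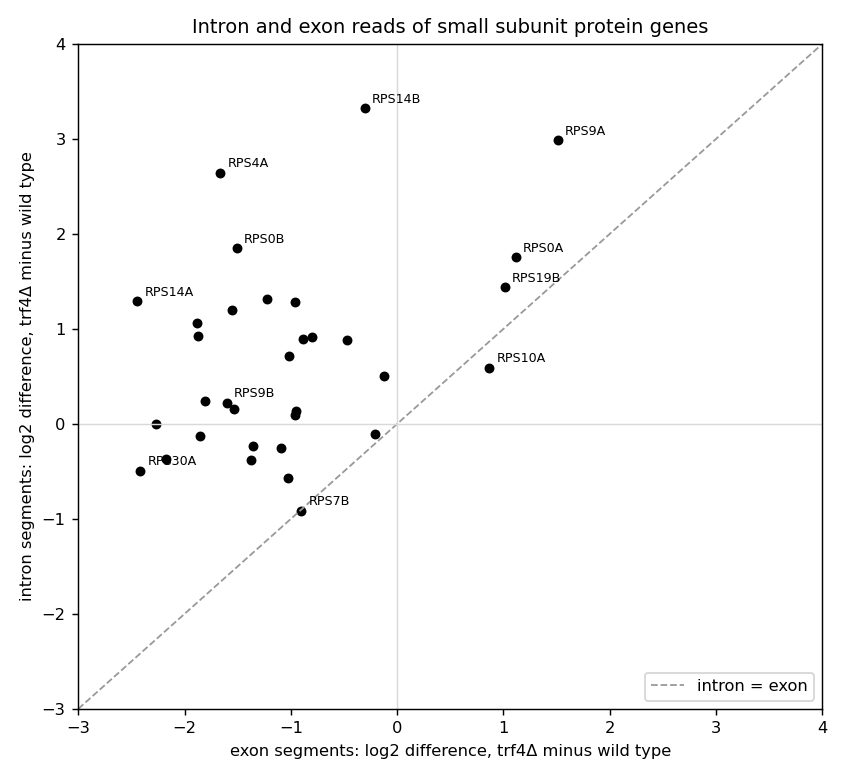
Log2 difference, trf4Δ minus wild type, of intron segments (vertical) against exon segments (horizontal) for 33 small subunit protein genes, 1 point per gene. All points lie above the dashed line of equal difference except RPS10A at -0.28 and RPS7B at -0.01 from it, and RPS14B and RPS9A stand highest.

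Intron density as a percentage of exon density had a median of 33.8% in trf4Δ, against 12.6% in wild type. Over the 97 other compared ORFs with an intron the medians were similar, 30.5% in trf4Δ, against 12.3% in wild type. The excess was largest in RPS4A (4.31), RPS14A (3.73), RPS14B (3.63), RPS0B (3.36) and RPS16A (2.95). Of these only RPS14B had many intron reads. RPS4A had 21 intron reads per segment in trf4Δ, against 3.36 in wild type. A gained region from upstream overlaps its start and ends at base 162, inside its intron. The 2 segments of that region in the ORF held 96 reads in trf4Δ, against 17.5 in wild type. RPS0B had 31.5 intron reads per segment in trf4Δ, against 8.73 in wild type, and RPS16A had 53.2 in trf4Δ, against 25.5 in wild type.

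The smallest excesses were those of RPS10A (-0.28), RPS7B (-0.01), RPS16B (0.11), RPS19B (0.42) and RPS19A (0.46). RPS10A had 52.0 intron reads per segment in trf4Δ, against 34.5 in wild type, and its exons 341 in trf4Δ, against 187 in wild type. RPS7B had fewer normalised reads in trf4Δ throughout, with 26 intron reads per segment in trf4Δ, against 49.0 in wild type. RPS19B, for a head protein, had more in both parts, with 64 intron reads in trf4Δ, against 23.7 in wild type and 563 exon reads in trf4Δ, against 279 in wild type.

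By density ratio, RPS14B (349%), RPS9A (296%), RPS6B (282%), RPS6A (224%) and RPS17B (182%) had denser introns than exons in trf4Δ, against 28.2%, 106%, 41.9%, 67.6% and 90.9% in wild type. The RPS6 copies are among the genes with few unique windows, and their exons averaged 14.2 (RPS6B) and 8.17 (RPS6A) reads per segment in trf4Δ. Low ratios in trf4Δ were those of RPS0A (2.88%), RPS30A (3.13%), RPS14A (9.75%) and RPS30B (10.4%), against 1.85%, 0.825%, 0.732% and 2.17% in wild type.

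Intron differences were also grouped by the hexamer at the start of the intron. The 9 introns with GTACGT had a median intron log2 difference of 0.00, from -0.57 to 3.32. Of them, 4 had more reads in trf4Δ, against 61.9% of the 97 other compared ORFs with an intron. In the 21 compared introns with GTATGT the median was 0.88, from -0.92 to 2.64. Of these, 17 had more reads in trf4Δ, against the same 61.9%. The median excess of intron over exon was closer between the sets, 1.48 for GTACGT and 1.72 for GTATGT. No difference between the sets was tested. Both genes at the top, RPS14B and RPS9A, belong to the GTACGT set, as do RPS9B (0.22) and RPS30B (0.00).

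Gained regions, called as stretches of at least 300 bp of segments more than 4-fold higher in trf4Δ, lay in the ORF or within 300 bp of it for 17 of the 55 genes (30.9%), against 36.2% of the other compared ORFs. They lay upstream of 10 genes (18.2%, against 21.1%), in the ORF of 7 (12.7%, against 19.7%) and downstream of 10 (18.2%, against 17.8%). Of the 10 genes with a region upstream, 6 had fewer normalised reads on the ORF in trf4Δ, against 57.1% of the 1304 other compared ORFs with one and 72.0% of all compared ORFs. RPS26A, RPS26B, RPS14B and RPS9A, described above, had more, and RPS14A, RPS4A and the single copy genes RPS2, RPS3, RPS20 and RPS31 had fewer. Upstream of RPS2, for a protein at the mRNA entry, the region held 18339 reads in trf4Δ, against 556 in wild type, while the ORF had 591 in trf4Δ, against 1031 in wild type. That region ends at base -122, and the 3 segments of the 300 bp next to the ORF together held 108 reads in trf4Δ, against 109 in wild type.

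Upstream of RPS20 the region held 17082 reads in trf4Δ, against 710 in wild type, and the ORF 290 in trf4Δ, against 1133 in wild type. Upstream of RPS3 it held 10420 reads in trf4Δ, against 525 in wild type. Upstream of RPS31, which makes ubiquitin fused to a ribosomal protein, it held 1144 in trf4Δ, against 223 in wild type. In the 3 segments of the 300 bp next to the ORF, RPS20 had 495 reads in trf4Δ, against 30.9 in wild type. There RPS3 had 5740 in trf4Δ, against 198 in wild type, and RPS31 had 49 in trf4Δ, against 20.2 in wild type. The region that overlaps the start of RPS4A held 3470 reads in trf4Δ, against 540 in wild type. Most of these lay upstream, with 96 in trf4Δ and 17.5 in wild type in its 2 segments in the ORF. On their ORFs RPS2 (-0.80) and RPS4A (-0.93) lie just above the median ORF.

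Of the downstream regions, that of RPS29A held 16014 reads in trf4Δ, against 1205 in wild type. It runs from base 451 to base 1250, apart from the ORF of 171 bp, which had 512 reads in trf4Δ, against 708 in wild type. The region after RPS23B, whose protein acts in decoding accuracy, held 2246 reads in trf4Δ, against 179 in wild type. Its segments with 743 and 1283 reads in trf4Δ touch another listed ORF. Smaller regions were those of RPS2, RPS10A and RPS24A, with 582, 558 and 426 reads in trf4Δ, against 87.3, 91.4 and 37.6 in wild type. That of RPS10A begins at base 705, inside its ORF of 755 bp.

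**Figure D5:**
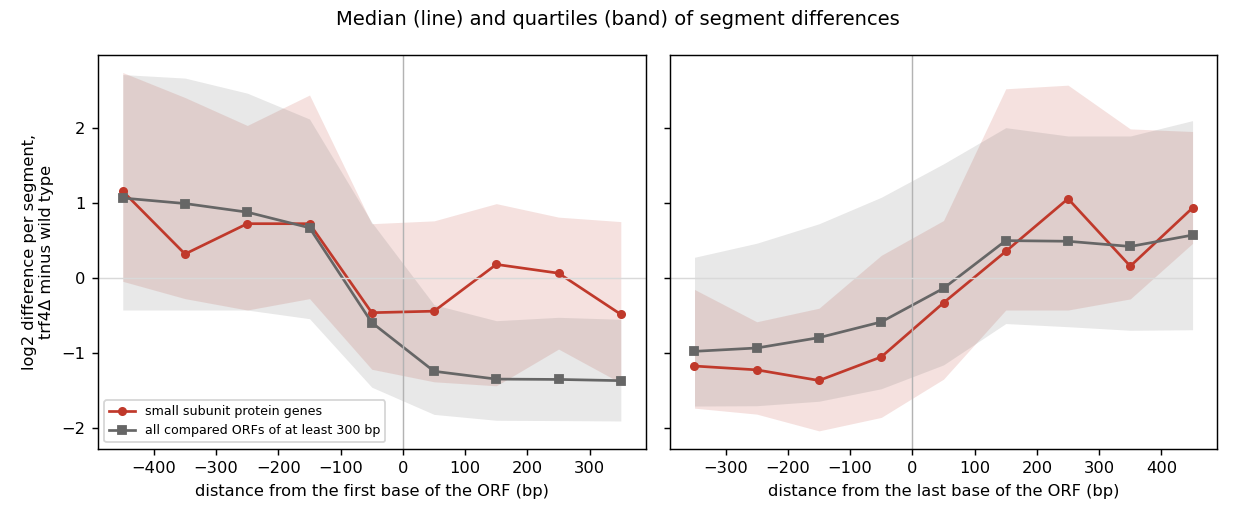
Median (line) and quartiles (band) of the log2 difference per segment, trf4Δ minus wild type, by distance from the first base (left) and the last base (right) of the ORF, for small subunit protein genes and all compared ORFs of at least 300 bp. In the first 400 bp the small subunit genes lie above all ORFs, at 0.18 against -1.35 at 150 bp, and near the end of the ORF they lie below them.

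Around the genes the difference followed the course seen at other ORFs outside the gene and left it at the start of the ORF. In the segments centred 150 bp into the ORF the median was 0.18 over 54 small subunit genes and -1.35 over all compared ORFs, intron segments included. In those centred 150 bp before the end it was -1.37 in the family and -0.79 over all. The 300 bp upstream, without segments that touch another ORF, had a median of 0.73 in 53 genes, against 0.44 over all compared ORFs, and the 300 bp downstream 0.25 in 49 genes, against 0.11. The downstream sign depends on the segments taken: with those that touch another ORF included, the median was -0.10 in the family and -0.52 over all compared ORFs. These flanks had few reads, a median of 7.00 per segment upstream in trf4Δ, against 2.69 in wild type, so a median of this kind can rest on 1 or 2 reads.

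As the promoters are known to be bound by Rap1 in many ribosomal protein genes, the 250 bp before to 50 bp after the ORF start in R64 were searched on both strands for a form of the Rap1 site, CACCC and ACA with any 2 bases between them. It occurred in 1 of 55 genes (1.82%) and in 1.03% of 6001 genes. Only this window and this form were searched, so the count cannot tell whether sites lie further upstream or in another form. The letters GTAAA and GTAG, found at sites of the termination factor Nrd1, and TCTTG, found at sites of its partner Nab3, occurred in 63.6%, 74.5% and 67.3% of the 55 windows, against 65.4%, 80.2% and 60.2% of all windows.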

How the data were processed

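Reads were mapped by the authors with Bowtie 0.12.7 after Trim Galore 0.3.5 (submitters' processing notes), with a choice of 2 genomes, SGD1.01 (only reads with 1 position) and an assembled SK1 genome (other reads placed at random), and summed in SeqMonk. Which mapping made the tables is not given in the sources used here. The authors deposited log2 read counts per 100 bp segment, unnormalised, and per ORF, with wild type multiplied by 1.345. A value of 0.9 stands for 0 reads. Undoing the log2 step gave whole reads for 100% of values (relative tolerance 0.001). Reads near a segment border may be counted in both segments.

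Wild-type reads were scaled to the trf4Δ total of 121500 segments (medians of 28 reads in trf4Δ and 32 in wild type). An ORF entered the comparison if its log2 reads were above 6 in either library. Gained regions joined segments more than 4-fold higher with starts up to 300 bp apart, over at least 300 bp, with mean log2 trf4Δ reads above 6. Introns came from R64, by distance from the ORF start, where the ORF had the same length there (53 of 55 genes). R64 coordinates differ from SGD1.01 and are not given. Intervals of shares are Wilson intervals, those of ratios exact binomial intervals, all at 95%. Steps were tested on simulated data. No test between libraries was run.

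Values are given for the 5 genes with most reads per kb in trf4Δ, the 5 highest and 5 lowest differences, all beyond 4-fold, the 5 pairs with the largest and 5 with the smallest ratios, all with a gained region, and the 5 highest and 5 lowest introns against exons. Genes and lists were chosen with earlier results of these data known. Of the duplicated genes, 2 pairs count in the totals but are not reported here by name or in the plots of genes and pairs. Head and body groups were assigned from general knowledge. Software was pandas 2.3.3 and numpy 2.4.6 under Python 3.11.15, with scipy 1.17.1 for intervals and matplotlib 3.10.9 for plots.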

Additional observations from a re-analysis of the deposited data

How the results depend on the processing

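No paired analysis was possible because each genotype has 1 library, and for the same reason no replicate could be left out. Setting the median ORF to 0 turned the median difference of the small subunit genes to 0.020. On that scale 0 genes were more than 4-fold lower in trf4Δ (against 0.192% of all compared ORFs) and 5 more than 4-fold higher (9.09%, against 15.1%). Past 2-fold, 9 were lower (16.4%, against 11.6%) and 10 higher (18.2%, against 27.2%). The median was -0.84 with U1 snRNA reads left out of the totals, and -1.04 from segments wholly inside the ORF, by which the family held 0.393% of ORF reads in trf4Δ and 0.423% in wild type. Flanks of 500 bp gave an upstream median of 1.12, and using all flank segments turned the downstream median to -0.10 (-0.52 over all compared ORFs). With more than 8-fold per segment, 11 genes had a gained region in a flank, in place of 17, and other ORFs were not counted at that setting. The median excess of intron over exon was 1.25 when a segment needed only to lie mostly inside, and 1.70 in the 27 genes with at least 80% unique windows, a choice made after seeing the data, as were coding length for pairs and leaving out genes with a gained region, which gave 1.73. Counts of pairs stayed within 1.5 times under every alternative run: segments (22 pairs, since a copy of RPS29 holds no whole segment), unique windows and coding length. The RPS21 copies changed order between the libraries by reads per kb, but copy B was higher in both by segments (-0.10 in trf4Δ, -0.34 in wild type) and by coding length (-0.15 in trf4Δ, -0.48 in wild type). Depth limits intron values, most of which rest on under 100 reads per segment in both libraries.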
